A study of Mus musculus with 12 samples.

Results

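The genes of cholesterol and fatty acid synthesis, sterol sensing and sterol export were followed in dorsal root ganglia (DRG), which house sensory neurons beside the spinal cord. The mice were C57BL/6, 6 to 8 weeks old. The 32 genes were chosen by name from the 44345 genes of the deposited expression table, and all 32 were found. They comprise 15 enzymes of sterol synthesis, 6 genes of sterol sensing and transport within the cell, 8 enzymes of fatty acid synthesis and 3 genes of sterol efflux and lysosomal export. Daily gavage for 10 days gave phosphate-buffered saline as vehicle, or the same saline with indole-3-propionic acid (IPA) at a dose of 20 mg/kg. IPA is a product of tryptophan breakdown by gut bacteria. Sciatic DRG were taken with the nerve intact, or after a crush of the sciatic nerve that was followed by 3 more days, on which IPA gavage went on. The labels leave unclear if vehicle mice were still gavaged on those days. The 4 groups were therefore vehicle, IPA, injured vehicle and injured IPA. Each had 3 libraries, and each of the 12 libraries pooled the DRG of 2 mice, so the values describe pools of whole ganglia with neurons, satellite glia, Schwann cells, macrophages, fibroblasts and vessels together.

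Cells make cholesterol from acetyl-CoA through the mevalonate pathway, squalene and a series of sterol intermediates, and make fatty acids from the same precursor. The transcription factors SREBP-1 (encoded by Srebf1) and SREBP-2 (Srebf2) drive the genes of both pathways. They are carried by SCAP (Scap) out of the endoplasmic reticulum when sterols are scarce, and the INSIG proteins (Insig1, Insig2) hold them back when sterols are plentiful. Excess sterol is exported by transporters such as ABCA1 and ABCG1, whose genes are targets of the liver X receptors. In peripheral nerve tissue the pathway is best known for supplying Schwann cells with myelin lipid, and macrophages handle the cholesterol of myelin debris.

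Values are the deposited ones, which were scaled to sequencing depth but not to gene length and are called CPM-like here. They rest on 40938034 to 62501969 recovered reads per library, and 1 read was worth 0.0130 to 0.0199. Differences were tested with limma on log2(value + 0.5) over all 12 libraries and 15603 genes, and a gene was called at a Benjamini-Hochberg adjusted p under 0.05. All 32 genes passed the filter on low values. Atf3, an injury-induced transcription factor, lay at 10.5 to 12.4 in the 6 uninjured and at 466 to 525 in the 6 injured libraries, so every library matched its injury label. Replicate 1 of the injured vehicle group stood apart from the others of its group. Its values changed by -0.15 log2 for each 10% of transcript GC content, against 0.07 and 0.05 in the other injured vehicle replicates. The same slope was -0.10, -0.15 and -0.00 in vehicle, 0.02, 0.07 and 0.01 in IPA, and 0.14, 0.09 and -0.03 in injured IPA libraries, so it was lower in vehicle than in IPA libraries without injury and overlapped between the injured groups.

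Per kilobase of the longest annotated transcript, the desaturase gene Scd2 had the highest level of the 32 genes, with a mean of 321 over the 12 libraries. It was followed by Hmgcs1, which encodes the synthase that commits acetyl units to the mevalonate pathway, at 211. The citrate lyase gene Acly, whose enzyme supplies cytosolic acetyl-CoA, lay at 166, and the second stearoyl-CoA desaturase gene, Scd1, at 156. No other gene reached 72 per kilobase, and Fdps, the farnesyl diphosphate synthase, came next at 71.7. The lowest levels per kilobase were those of the transporter gene Abcg1 at 7.76, the lysosomal cholesterol exporter Npc1 at 6.46 and the lanosterol synthase Lss at 5.64. Enzymes of sterol synthesis differed widely in level: Hmgcs1 stood at 211 per kilobase and the isomerase Idi1 at 10.3. Scd1 and Acly exchanged places between conditions, with Scd1 at 167 and Acly at 153 per kilobase in vehicle and 145 and 182 in injured vehicle ganglia.

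**Figure D1:**
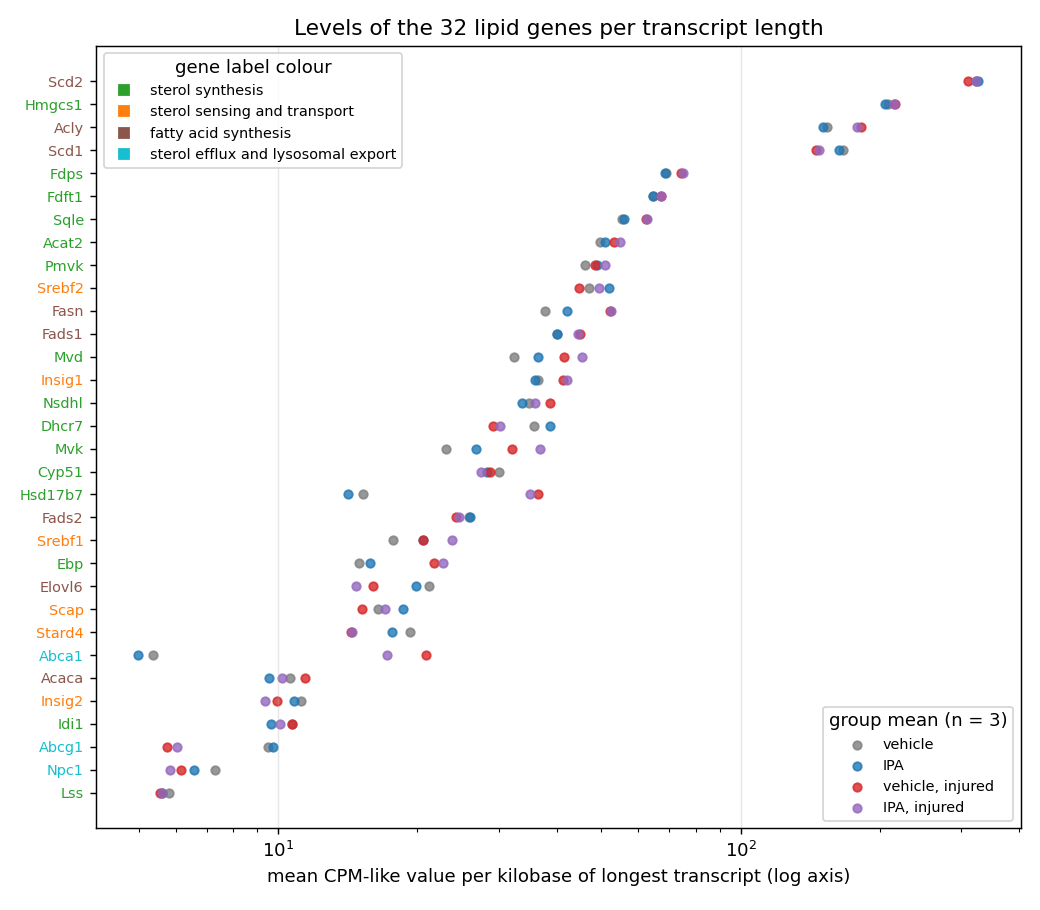
Mean CPM-like value per kilobase of the longest transcript (log axis) for each of the 32 genes in the 4 groups, n = 3 libraries each. The largest separations between groups are those of Abca1 (5.37 in vehicle, 20.9 in injured vehicle) and Hsd17b7 (15.2 and 36.4).

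After the crush, the lipid genes did not move as a block. Under vehicle, 11 of the 32 genes rose and 6 fell, where 23.6% of all tested genes rose and 24.4% fell (48% in either direction). Their median log2 change was 0.07, beside -0.00 over all tested genes. Under IPA, 10 rose and 6 fell, against 21.2% and 22.5% of all tested genes (43.6% in either direction), with a median of 0.07 beside -0.02. Of the sterol synthesis enzymes 6 of 15 rose and 1 fell under vehicle (5 and 1 under IPA), and of the fatty acid enzymes 3 of 8 rose and 2 fell (3 and 1). Of the sensing and transport genes 1 of 6 rose and 1 fell (1 and 2), and of the efflux and lysosomal genes 1 of 3 rose and 2 fell in both comparisons. All injured libraries of a gene lay above all uninjured ones for 13 genes under vehicle and 15 under IPA, where 25.4% and 27.2% of all tested genes did so. They lay below for 6 and 9 genes, where 26% and 30.8% of all tested genes did so. In bulk ganglia a change in the number of cells of a type and a change in RNA per cell cannot be told apart.

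**Figure D2:**
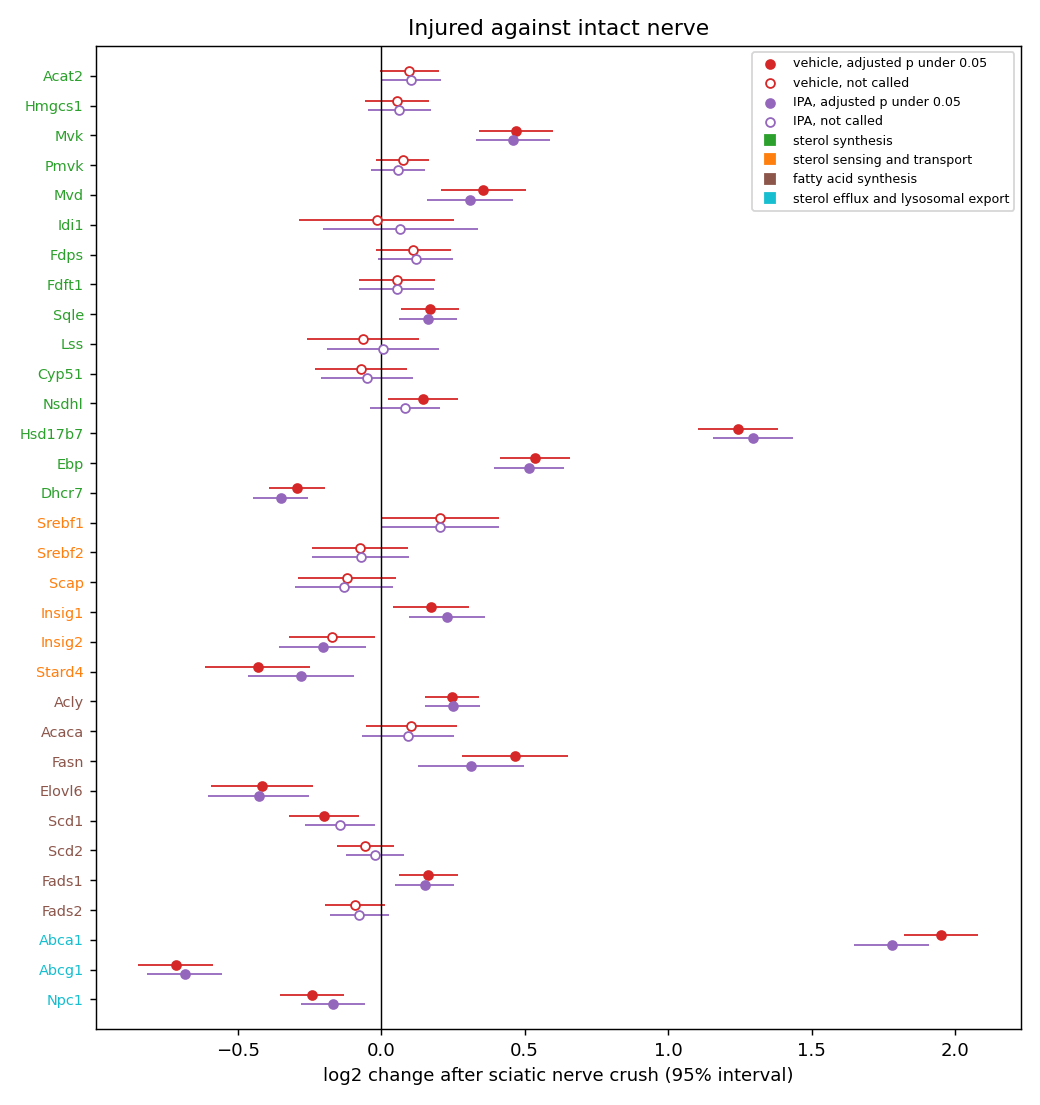
Log2 change from intact to injured nerve with its 95% interval for each gene, under vehicle (red) and under IPA (purple), 3 libraries against 3; filled points passed the adjusted test. Abca1 (1.95 and 1.78) and Hsd17b7 (1.24 and 1.30) lie far to the right and Abcg1 (-0.72 and -0.68) to the left of the other genes.

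Among the sterol enzymes the largest rises were those of Hsd17b7, Ebp, Mvk and Mvd. Hsd17b7 (chromosome 1, 169949535 to 169969241 on mm10, minus strand) encodes a keto reductase that acts while methyl groups are removed from sterol intermediates and that can also reduce estrone. Its values were 70.7, 71.4 and 68.8 in vehicle replicates 1 to 3 and 181, 147 and 176 in injured vehicle replicates; they were 67.0, 63.7 and 65.7 in IPA and 156, 162 and 166 in injured IPA libraries. Every injured library lay above every uninjured library by a wide margin. The log2 change was 1.24 ± 0.06 (SE) under vehicle and 1.30 ± 0.06 under IPA, or 2.37-fold and 2.46-fold, with adjusted p of 2.78e-09 and 2.04e-09.

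Ebp (chromosome X, 8185329 to 8193512, minus strand) encodes the isomerase that shifts a ring double bond late in the pathway. It was measured at 26.9, 24.4 and 26.7 in vehicle, 27.2, 27.1 and 28.2 in IPA, 37.4, 39.2 and 37.1 in injured vehicle and 38.5, 38.1 and 42.2 in injured IPA libraries. The injured and uninjured libraries did not overlap, and the rise was 0.54 ± 0.06 log2 under vehicle (adjusted p = 3.45e-06) and 0.52 ± 0.06 under IPA (adjusted p = 5.66e-06).

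Of the 3 successive enzymes that turn mevalonate into isopentenyl diphosphate, the first and the last rose. Mvk (chromosome 5, 114444269 to 114460591, plus strand), the mevalonate kinase, lay at 53.9, 53.1 and 58.0 in vehicle, 64.2, 65.3 and 61.2 in IPA, 72.0, 76.0 and 81.1 in injured vehicle and 91.8, 89.7 and 81.5 in injured IPA libraries. The 4 groups formed 4 steps in which only neighbouring groups came close. Injury raised Mvk by 0.47 ± 0.06 log2 under vehicle (adjusted p = 2.01e-05) and by 0.46 ± 0.06 under IPA (2.89e-05). Mvd (chromosome 8, 122433601 to 122443422, minus strand), the decarboxylase that ends this stretch, had 60.8, 57.3 and 60.0 in vehicle and 71.5, 76.9 and 80.1 in injured vehicle libraries. Under IPA its values were 67.5, 69.9 and 63.1 without and 89.2, 86.4 and 73.8 with injury. The groups did not overlap within either treatment, and Mvd rose by 0.36 ± 0.07 and 0.31 ± 0.07 log2 (adjusted p = 0.000781 and 0.00246). With each library's trend on GC content and transcript length taken out, the rise of Mvd under vehicle was 0.23. Pmvk, the phosphomevalonate kinase that works between these enzymes, changed by 0.08 ± 0.04 and 0.06 ± 0.04 log2 and did not pass.

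The promoters of the 4 sterol enzymes that rose most, and of Abca1, which rose most of all 32 genes, are shown to let their letters be compared. They come from RefSeq on GRCm38.p6, where 23 of the 32 genes had an entry, and each holds the 250 bases before a transcription start, 5′ to 3′ on the gene's own strand. Capitals mark every CCAAT box (CCAAT, or ATTGG on the other strand) and every E-box CACGTG; marked motifs do not overlap in these 5 windows.
Hsd17b7, chr1:169969206-169969455, minus strand: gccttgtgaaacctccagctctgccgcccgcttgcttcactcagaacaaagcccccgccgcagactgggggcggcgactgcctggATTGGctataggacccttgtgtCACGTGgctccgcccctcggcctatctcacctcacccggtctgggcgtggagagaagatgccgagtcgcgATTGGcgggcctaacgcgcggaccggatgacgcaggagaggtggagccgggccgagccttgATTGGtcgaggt
Ebp, chrX:8193513-8193762, minus strand: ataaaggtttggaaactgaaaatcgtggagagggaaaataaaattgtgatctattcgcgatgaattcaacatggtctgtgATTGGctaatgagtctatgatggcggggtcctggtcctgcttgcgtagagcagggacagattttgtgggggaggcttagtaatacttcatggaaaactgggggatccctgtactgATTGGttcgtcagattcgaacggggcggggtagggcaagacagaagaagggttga
Mvk, chr5:114444019-114444268, plus strand: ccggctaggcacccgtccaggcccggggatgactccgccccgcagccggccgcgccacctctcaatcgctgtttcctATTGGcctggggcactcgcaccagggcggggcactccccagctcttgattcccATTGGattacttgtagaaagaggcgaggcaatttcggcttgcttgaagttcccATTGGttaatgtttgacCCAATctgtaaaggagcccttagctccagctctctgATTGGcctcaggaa
Mvd, chr8:122443423-122443672, minus strand: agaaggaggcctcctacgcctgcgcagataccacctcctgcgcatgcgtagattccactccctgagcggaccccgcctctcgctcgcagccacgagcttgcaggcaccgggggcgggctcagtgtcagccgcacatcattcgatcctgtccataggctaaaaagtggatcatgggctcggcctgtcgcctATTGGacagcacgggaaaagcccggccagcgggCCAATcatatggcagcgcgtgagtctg
Abca1, chr4:53159896-53160145, minus strand: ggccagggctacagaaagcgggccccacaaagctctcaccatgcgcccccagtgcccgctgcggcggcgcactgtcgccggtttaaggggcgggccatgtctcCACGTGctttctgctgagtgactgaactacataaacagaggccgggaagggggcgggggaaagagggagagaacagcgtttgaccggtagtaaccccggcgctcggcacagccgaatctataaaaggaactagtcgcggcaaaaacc

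The CCAAT box, to which NF-Y binds, occurred 5 times in the Mvk window, 3 times in that of Hsd17b7, 2 times each in those of Ebp and Mvd, and not in that of Abca1. Among sterol enzymes called in neither injury comparison it occurred 3 times for Hmgcs1 and 2 times for Idi1. It occurred 1 time each for Lss, Cyp51 and a window of Pmvk, and not for Acat2. A window of Dhcr7, which fell after injury, held 2 CCAAT boxes, as did that of Nsdhl. Searched on both strands over all starts of a gene, the CCAAT box was present in 16 of the 23 genes, against 37.5% of 27025 RefSeq genes. The GC box GGGCGG was present in 19 of 23, against 35.4%. The E-box CACGTG was present in 5 of 23 (Abca1, Dhcr7, Hsd17b7, Insig1 and Scap), against 6.86%. The sterol regulatory element, searched as ATCAC and CCAC with 1 base between, was found in none of the 23, against 0.226% of genes. The repeat of AGGTCA with 4 bases between was likewise found in none, against 0.0148%. Both strings are so rare that none in 23 genes was likely beforehand. Variant forms of these 2 elements were not searched, so their absence cannot be read from these counts. The AP-1 letters TGANTCA were found in 1, Dhcr7, against 7.82%. These are matches of letters in windows of 250 bases and no more.

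Dhcr7, the reductase that makes cholesterol from its immediate precursor, moved against these enzymes. Its values were 104, 97.8 and 101 in vehicle, 107, 114 and 105 in IPA, 80.8, 84.3 and 81.2 in injured vehicle and 84.6, 87.8 and 83.0 in injured IPA libraries. All 6 injured libraries lay below all 6 uninjured ones. Dhcr7 fell by 0.29 ± 0.05 log2 under vehicle (adjusted p = 0.000113) and by 0.35 ± 0.05 under IPA (2.71e-05).

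Sqle, the squalene epoxidase and a rate-limiting step of the later pathway, rose by 0.17 ± 0.05 log2 under vehicle (adjusted p = 0.00785) and by 0.16 ± 0.05 under IPA (0.0114). The call under IPA was lost without IPA replicate 3 (adjusted p = 0.0566). Nsdhl, a dehydrogenase of the demethylation steps, was called higher under vehicle at 0.15 ± 0.06 (adjusted p = 0.0479). It was no longer called without any of 8 single libraries, with adjusted p of 0.136 without injured vehicle replicate 1 and 0.159 without vehicle replicate 3. Under IPA its change was 0.08 ± 0.06. The other 8 sterol enzymes, Acat2, Hmgcs1, Pmvk, Idi1, Fdps, Fdft1, Lss and Cyp51, were called in neither comparison by limma. Acat2 passed under IPA with edgeR, with TMM scaling and in 4 other settings, and Cyp51 under vehicle in 3 settings, both forms of array weights and the omission of injured vehicle replicate 1. Acat2 also passed under vehicle without vehicle replicate 1, and Idi1 and Pmvk with array weights. The changes of these 8 ran from -0.07 (Cyp51) to 0.11 (Fdps) under vehicle and from -0.05 (Cyp51) to 0.12 (Fdps) under IPA. Idi1 was the least certain of them, with a 95% interval from -0.29 to 0.25 under vehicle. The strand setting of the read counting is not given in the sources used here, and 774 of the 4227 exonic bases of Fdft1, the squalene synthase, are shared with the opposite-strand gene Ctsb, which was measured at a mean of 1589 against values of 231 to 277 for Fdft1.

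**Figure D3:**
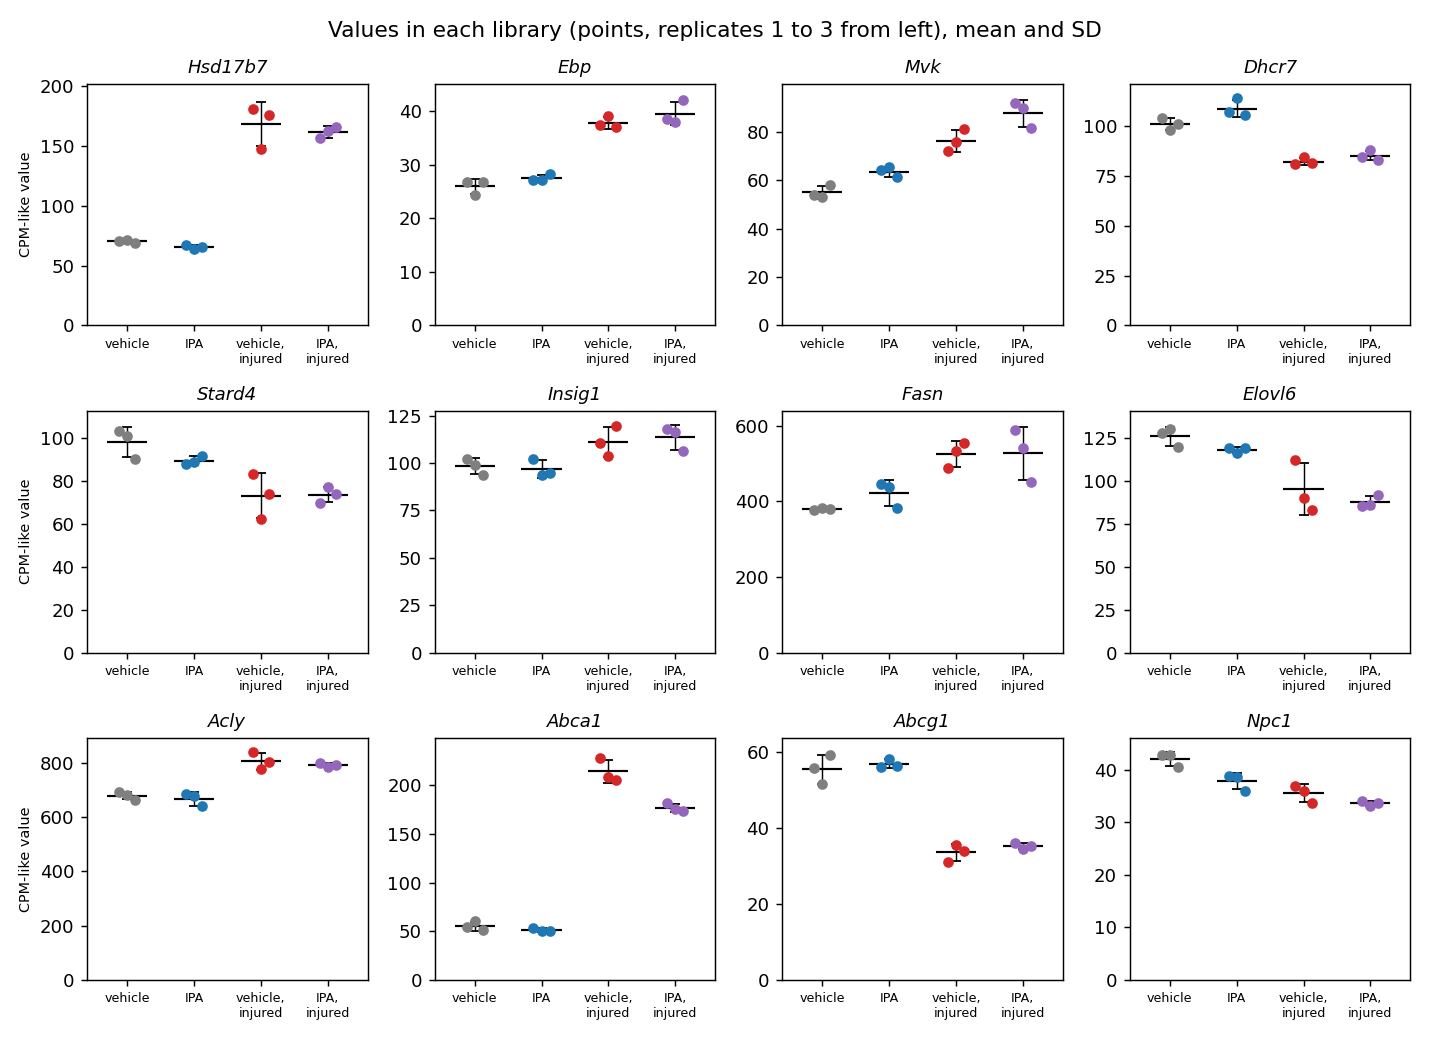
CPM-like values of 12 of the genes in every library (points, replicates 1 to 3 from the left), with the mean and SD of each group of 3 (bars); each axis starts at 0. Hsd17b7, Ebp, Mvk, Acly and Abca1 are higher and Dhcr7, Elovl6, Abcg1 and Npc1 lower in the injured groups, and the injured IPA libraries of Abca1 (174 to 181) lie below the injured vehicle libraries (206 to 228).

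Among the genes of sterol sensing and transport, Stard4 changed most after injury. Stard4, a soluble carrier that moves cholesterol between membranes, was highest without injury, with 104, 101 and 90.4 in vehicle and 88.0, 88.8 and 92.0 in IPA libraries. After injury it was 83.3, 62.2 and 74.2 under vehicle and 69.9, 77.1 and 74.2 under IPA. No injured library reached an uninjured library of its treatment. Stard4 fell by 0.43 ± 0.09 log2 under vehicle (adjusted p = 0.00093) and by 0.28 ± 0.09 under IPA (0.0166), a call that was lost without IPA replicate 3 (adjusted p = 0.0571) or injured IPA replicate 1 (0.0639).

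Insig1 rose, and Insig2 was called lower under IPA. Insig1 was measured at 102, 98.8 and 93.9 in vehicle, 102, 93.4 and 94.8 in IPA, 111, 104 and 119 in injured vehicle and 118, 116 and 106 in injured IPA libraries. The lowest injured library stood just above the highest uninjured one. Insig1 rose by 0.18 ± 0.06 log2 under vehicle (adjusted p = 0.0299) and by 0.23 ± 0.06 under IPA (0.00773). Its call under vehicle depended on vehicle replicate 2 (adjusted p = 0.0627 without it), vehicle replicate 3 (0.101) and injured vehicle replicate 3 (0.142), and it was also lost with DESeq2 (0.0555), without the filter (0.0582), on the 6 compared libraries alone (0.0583) and once the trend on GC content and length was taken out (0.108).

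Insig2 had 32, 30.0 and 28.5 in vehicle and 29.5, 24.6 and 26.2 in injured vehicle libraries, which overlapped, and 28.9, 29.0 and 29.4 in IPA and 24.5, 24.2 and 27.1 in injured IPA libraries, which did not. It fell by 0.20 ± 0.07 log2 under IPA (adjusted p = 0.0306) and was not called under vehicle at -0.17 ± 0.07 (0.0591). The IPA call was lost without any of IPA replicates 1, 2 and 3 or injured IPA replicates 1 and 2, with adjusted p up to 0.113, and just missed with edgeR (0.0503) and without the filter (0.0534). Under vehicle Insig2 passed without injured vehicle replicate 1 (adjusted p = 0.00614), without vehicle replicate 3 (0.0387) or without injured IPA replicate 3 (0.0459), and also with the trend on GC content and length removed (0.00505), with quantile normalization (0.0387) and with both forms of array weights (0.000121 and 0.000528). The difference between the treatments had an unadjusted p of 0.75 in the interaction. The SREBP genes and their carrier were not called by limma: the injury change was 0.21 ± 0.10 under vehicle and 0.21 ± 0.10 under IPA for Srebf1, -0.07 ± 0.08 in each for Srebf2, and -0.12 ± 0.08 and -0.13 ± 0.08 for Scap. Srebf1 passed under vehicle without injured vehicle replicate 1 or vehicle replicate 3, and under IPA without injured vehicle replicate 1. With the trend on GC content and length removed, Srebf1 passed as higher and Scap as lower in both comparisons, as they did under IPA with array weights.

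In fatty acid synthesis Acly and the synthase gene Fasn rose, while the elongase gene Elovl6 fell. Acly had 690.3, 683 and 663 in vehicle, 684, 676 and 639 in IPA, 839, 775 and 803 in injured vehicle and 799.6, 785 and 790.3 in injured IPA libraries. The injured libraries all lay above the uninjured ones, and Acly rose by 0.25 ± 0.04 log2 in each treatment (adjusted p = 0.000417 and 0.000435). Acaca, the acetyl-CoA carboxylase that performs the next step, was not called (0.11 ± 0.07 and 0.09 ± 0.07). It passed as higher in both comparisons once the trend on GC content and length was removed.

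Fasn, the fatty acid synthase, was tight in vehicle at 376, 382 and 379.6 and higher after injury at 488, 533 and 554. Under IPA it was 446, 439 and 383 without and 590.0, 542 and 451 with injury. The IPA groups were wider, and their nearest libraries, 446 and 451, almost met. Fasn rose by 0.47 ± 0.09 log2 under vehicle (adjusted p = 0.000496) and by 0.31 ± 0.09 under IPA (0.0087), and the interaction was -0.15 ± 0.12 (unadjusted p = 0.228).

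Elovl6, the elongase that lengthens palmitate, had 128, 130.3 and 119.9 in vehicle, 119, 116 and 119 in IPA, 112, 90.3 and 83.2 in injured vehicle and 85.3, 86.3 and 91.9 in injured IPA libraries. Injured vehicle replicate 1 came nearest to the uninjured libraries, without reaching them. Elovl6 fell by 0.41 ± 0.08 log2 under vehicle (adjusted p = 0.000921) and by 0.43 ± 0.08 under IPA (0.000842).

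The desaturases gave small changes of both signs. Scd1 was at 829, 792 and 796 in vehicle and 756, 703 and 650.2 in injured vehicle libraries, and at 794, 813 and 758 in IPA and 682, 745 and 716 in injured IPA libraries. The groups did not overlap within a treatment, though the gaps were narrow. Scd1 fell by 0.20 ± 0.06 log2 under vehicle (adjusted p = 0.0104, and 0.0592 without injured vehicle replicate 3), and its change under IPA, -0.14 ± 0.06, did not pass (0.0573). The interaction was 0.06 ± 0.08 with an unadjusted p of 0.492. Without injured vehicle replicate 1 (adjusted p = 0.0225) or replicate 3 (0.0385) the IPA change passed.

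Fads1, a desaturase of polyunsaturated fatty acids, had 136, 137 and 143 in vehicle, 134, 141 and 139 in IPA, 155, 162 and 149 in injured vehicle and 149, 149.9 and 163 in injured IPA libraries. Its injured libraries lay above the uninjured ones in both treatments. Fads1 rose by 0.16 ± 0.05 log2 under vehicle (adjusted p = 0.0115) and by 0.15 ± 0.05 under IPA (0.0194). The vehicle call was lost with the GC and length trend removed (0.09, adjusted p = 0.0588) and without injured vehicle replicate 2 (0.053). The IPA call was lost without IPA replicate 1 (0.0847) or injured IPA replicate 3 (0.0725). Fads2, which acts one step before Fads1, changed by -0.09 ± 0.05 and -0.08 ± 0.05, and Scd2, the most abundant gene per kilobase, by -0.05 ± 0.05 and -0.02 ± 0.05; none of these passed. The near copies of the desaturases stayed low, Scd3 at 0.0788 to 0.419 and Scd4 at 0.385 to 0.779, so reads shared with them could hold little of the Scd1 and Scd2 values.

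Abca1 gave the largest change of the 32 genes, and Abcg1 changed in the opposite direction. Abca1 (chromosome 4, 53030787 to 53159895, minus strand), which passes cholesterol and phospholipid to lipid-poor apolipoproteins, was measured at 54.3, 60.0 and 50.9 in vehicle and 53.4, 50.4 and 49.7 in IPA libraries. After injury it was 228, 209 and 206 under vehicle and 181, 175 and 174 under IPA. The injured libraries stood far above the uninjured ones. Abca1 rose by 1.95 ± 0.06 log2, or 3.87-fold, under vehicle (adjusted p = 1.27e-11) and by 1.78 ± 0.06, or 3.43-fold, under IPA (3.8e-11).

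Abcg1, which exports cholesterol to mature high-density lipoprotein, had 55.7, 51.4 and 59.1 in vehicle, 56.0, 58.2 and 56.2 in IPA, 31.1, 35.6 and 33.9 in injured vehicle and 36.0, 34.4 and 35.1 in injured IPA libraries. No injured library came near an uninjured one. Abcg1 fell by 0.72 ± 0.06 log2 to 0.609 of its level under vehicle (adjusted p = 3.66e-07) and by 0.68 ± 0.06 to 0.622 under IPA (6.51e-07). Per kilobase of transcript, Abca1 lay at 5.37 and Abcg1 at 9.50 in vehicle, and at 20.9 and 5.75 in injured vehicle ganglia.

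Npc1, the membrane protein that releases cholesterol from lysosomes, had 42.7, 42.7 and 40.4 in vehicle, 38.8, 38.6 and 36.0 in IPA, 36.9, 35.9 and 33.6 in injured vehicle and 33.9, 33.1 and 33.6 in injured IPA libraries. Within each treatment the injured libraries were below the uninjured ones. Npc1 fell by 0.24 ± 0.05 log2 under vehicle (adjusted p = 0.00173) and by 0.17 ± 0.05 under IPA (0.017), which was lost without IPA replicate 1 (0.072), IPA replicate 2 (0.067) or injured IPA replicate 2 (0.0607). It shares 511 of 11317 exonic bases with the opposite-strand gene Rmc1, which rose by 0.49 log2 after injury under vehicle.

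Macrophage markers also rose after injury. All 12 of 12 markers, Csf1r, Cd68 and the C1q chains among them, were called higher after injury under vehicle, with a median log2 change of 1.51, and 11 of 12 under IPA. Uninjured libraries had summed marker values of 45.8 to 59.4 under vehicle and 46.0 to 68.3 under IPA, and injured libraries 169 to 184 and 165 to 189. These sums overlapped between the injured groups. Of 12 neuronal markers 2 rose and 8 fell, of 8 satellite glia markers 2 rose and 3 fell, and of 12 myelinating Schwann cell markers 1 rose and none fell under vehicle (2 and 8, 2 and 4, and 0 and 0 under IPA). The summed satellite glia value was 537 to 585 without and 743 to 773 with injury under vehicle. Under IPA it was 532 to 563 without and 709 to 738 with injury. The median log2 change of the 8 satellite glia markers was nonetheless -0.18 under vehicle and -0.22 under IPA. Only 2 of the 8 lay above 0 in each treatment, so the rise of the sum rested on these. Of the 10 adipocyte markers tested 2 rose and 2 fell under vehicle and 0 and 2 under IPA, and their summed value overlapped across all groups. It was 46.3 to 60.2 under vehicle and 54.5 to 67.2 under IPA without injury, and 47.6 to 59.1 under vehicle after injury. The injured IPA libraries lay at 60.5, 65.5 and, in replicate 1, 32. Lep and Ucp1 stayed near 0. Of 8 fibroblast markers 4 rose and none fell under vehicle and 2 rose and 1 fell under IPA, and of 8 endothelial markers 1 rose and none fell in each. Of 10 skeletal muscle markers 1 rose and 1 fell under vehicle, and 0 and 1 under IPA. Their summed value was 146 to 194 in vehicle and 113 to 161 in IPA libraries, and after injury 359, 152 and 353 under vehicle and 353, 169.8 and 99.7 under IPA, so that 3 of the 6 injured libraries stood above all others. The part of these cell types in the changes of the lipid genes was not tested.

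The rest of the lipid pathways was read from 9 further lists, whose counts stand beside the same shares of all tested genes: 23.6% rose and 24.4% fell under vehicle, and 21.2% and 22.5% under IPA. Of 8 other sterol enzymes 1 rose and 2 fell under vehicle (1 and 3 under IPA). Dhdds and Nus1, the partner subunits of the enzyme that makes dolichol precursors, moved apart at -0.18 ± 0.04 (adjusted p = 0.0027) and 0.18 ± 0.06 (0.021). Of 6 genes of SREBP processing and sterol-regulated degradation none was called by limma, edgeR or DESeq2 under vehicle (1 had an unadjusted p under 0.05). Under IPA 1 rose, Rnf145, a sterol-responsive ubiquitin ligase, at 0.12 ± 0.04 (adjusted p = 0.0456), and under vehicle its change was 0.10 ± 0.04 (0.0862).

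Of 7 genes of lipoprotein uptake 3 rose under vehicle and none fell, and under IPA 3 rose and 1 fell. Scarb1, a receptor for high-density lipoprotein, rose by 0.43 ± 0.09 (adjusted p = 0.0014), and Npc2, the lysosomal partner of Npc1, rose by 0.25 ± 0.05 (0.0008) while Npc1 fell. Of 7 liver X receptor genes and partners 1 rose and 4 fell under vehicle, and none rose and 4 fell under IPA. The receptor gene Nr1h3 rose by 0.42 ± 0.10 (adjusted p = 0.0036) under vehicle, from 3.82, 4.47 and 5.06 to 5.81, 6.68 and 5.87; its partner genes Rxrg (-0.43 ± 0.08) and Rxra (-0.20 ± 0.05) fell.

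Of 9 genes of esterification and lipid droplets 7 rose and none fell under vehicle, with a median of 0.38, and 6 rose and none fell under IPA. Plin2, the coat protein of lipid droplets, was at 35.9, 37.3 and 38.9 in vehicle and 154, 172 and 152 in injured vehicle libraries, a separation like that of Abca1. It rose by 2.07 ± 0.07 log2 (adjusted p = 3e-11), and by 1.93 ± 0.07 under IPA (6.7e-11), where its values went from 37.0, 38.1 and 35.3 to 131, 137 and 159. Lipe, the hormone-sensitive lipase, rose by 0.92 ± 0.12 (adjusted p = 3.2e-05). Soat2, a sterol acyltransferase close to the limit of the filter, rose by 0.76 ± 0.11 (6.5e-05), whereas Soat1, the acyltransferase of most tissues, changed by -0.03 ± 0.05.

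Of 11 tested genes of lipoproteins and other sterol exporters (of 12 listed) 3 rose and 6 fell under vehicle and 2 rose and 6 fell under IPA. Apod, an apolipoprotein of nerve, rose by 0.98 ± 0.08 (adjusted p = 5e-07), while the transporter Abcg4 fell by 0.35 ± 0.06 (0.00036) and the plasma acyltransferase Lcat by 0.64 ± 0.13 (0.0011). Apoe, the main apolipoprotein of glia and macrophages, changed by 0.12 ± 0.11 and was not called. Of 18 tested genes of further fatty acid synthesis (of 20 listed) 5 rose and 5 fell under vehicle and 3 rose and 5 fell under IPA. Fads3, a desaturase that acts on sphingoid bases, was at 65.6, 63.4 and 67.3 in vehicle and 154, 164 and 167 in injured vehicle libraries. It rose by 1.30 ± 0.04 (adjusted p = 3.5e-11), a larger change than those of its chromosomal neighbours Fads1, which also rose, and Fads2. Thrsp, a lipogenic regulator, fell by 0.83 ± 0.10 (9.8e-06).

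Of 11 genes of fatty acid activation and binding 5 rose and 2 fell under vehicle (5 and 3 under IPA). They included the binding protein gene Fabp5, which rose by 0.44 ± 0.05 (adjusted p = 3.2e-06), the transporter Slc27a4, which rose by 0.51 ± 0.06 (1.2e-05), and the ligase Acsl6, which fell by 0.39 ± 0.06 (0.00012). Of 15 genes of fatty acid oxidation 3 rose and 4 fell (4 and 4 under IPA). The mitochondrial carnitine carrier Slc25a20 rose by 0.68 ± 0.05 (adjusted p = 2.3e-07), and Cpt1a, the carnitine transferase ahead of it, fell by 0.33 ± 0.04 (6.7e-06).

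**Figure D4:**
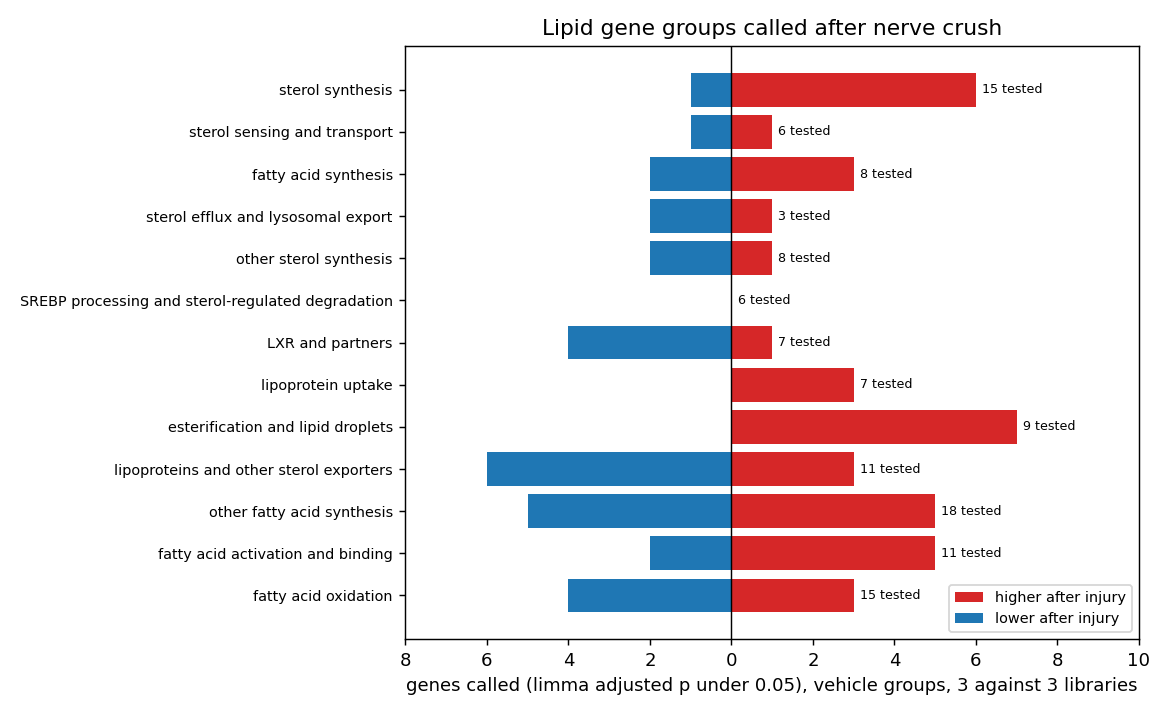
Number of genes called higher (right, red) and lower (left, blue) after nerve crush under vehicle in the 4 groups of the 32 genes and in 9 further lists, with the number tested in each. Esterification and lipid droplets had 7 of 9 higher and none lower, and lipoproteins and other sterol exporters had 6 of 11 lower.

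IPA against vehicle gave no called gene among the 32 by limma, and none among all 15603, without injury (0%) or after it (0%). Of the 32 genes 6 had an unadjusted p under 0.05 without injury and 4 after injury, beside 1902 and 1258 of all tested genes. The quasi-likelihood test of edgeR on recovered reads also called none of the 32 in either comparison, nor did DESeq2. Averaged over both injury states, limma called none (0%; 10 of 32 and 3153 of 15603 with an unadjusted p under 0.05) and edgeR none. In that average DESeq2 called Mvk higher (adjusted p = 0.0203) and Abca1 lower (0.0206), among 192 genes higher and 190 lower of the 8830 to which it gave an adjusted p. In the test of the interaction of IPA and injury no gene of the 32 had an unadjusted p under 0.05 (327 of 15603 did), none was called by limma (0%), edgeR or DESeq2, and the smallest p was that of Abca1, 0.062.

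The 4 genes below had the smallest unadjusted p in the average over both injury states, and none passed the adjusted limma test. Mvk, whose values are given above, was higher in all 3 IPA than in all 3 vehicle libraries, without injury and after it. The difference was 0.21 ± 0.06 log2 without injury (adjusted p = 0.408), 0.20 ± 0.06 after injury (0.578) and 0.20 ± 0.04 on average (0.157). Abca1 overlapped without injury (-0.10 ± 0.06, adjusted p = 0.435) and did not overlap after injury, where injured IPA libraries were lower by 0.28 ± 0.06 log2 (0.494). Its interaction was -0.17 ± 0.09 and its average difference -0.19 ± 0.04 (adjusted p = 0.157).

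Srebf1 had 74.0, 69.7 and 84.9 in vehicle, 87.0, 92.5 and 86.0 in IPA, 73.3, 93.7 and 98.0 in injured vehicle and 106, 104 and 96.5 in injured IPA libraries. The groups were apart without injury and overlapped after it, and the average difference was 0.22 ± 0.07 (adjusted p = 0.157). Npc1 was lower in IPA libraries without injury (-0.15 ± 0.05) and overlapped after injury (-0.08 ± 0.05), with an average of -0.11 ± 0.04 (adjusted p = 0.159).

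The GC slope was lower in vehicle than in IPA libraries without injury and overlapped between the injured groups. Its part in the differences between IPA and vehicle was not tested. The 8 genes whose IPA libraries all lay above all vehicle libraries without injury (Mvk, Pmvk, Mvd, Ebp, Dhcr7, Srebf1, Scap and Fasn; background 12.7%) had a median GC content of 57.4%, and the 3 whose libraries all lay below (Hsd17b7, Elovl6 and Npc1; background 12.5%) had 44.0%. The median of all tested genes was 49.8%. After injury 3 genes (Mvk, Pmvk and Scd2; background 5.86%) were all above and 2 (Acaca and Abca1; background 5.58%) all below. With each library's trend on GC content and length removed, 4 genes (Srebf1, Fasn, Scap and Mvk; background 7.85%) were above and 2 (Fads1 and Npc1; background 9.66%) below without injury. After injury 4 genes (Srebf1, Scd2, Scap and Mvk; background 6.31%) were then above and 2 (Abca1 and Nsdhl; background 6.03%) below. The average differences became 0.11 for Mvk, 0.12 for Srebf1, -0.09 for Abca1 and -0.05 for Npc1.

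**Figure D5:**
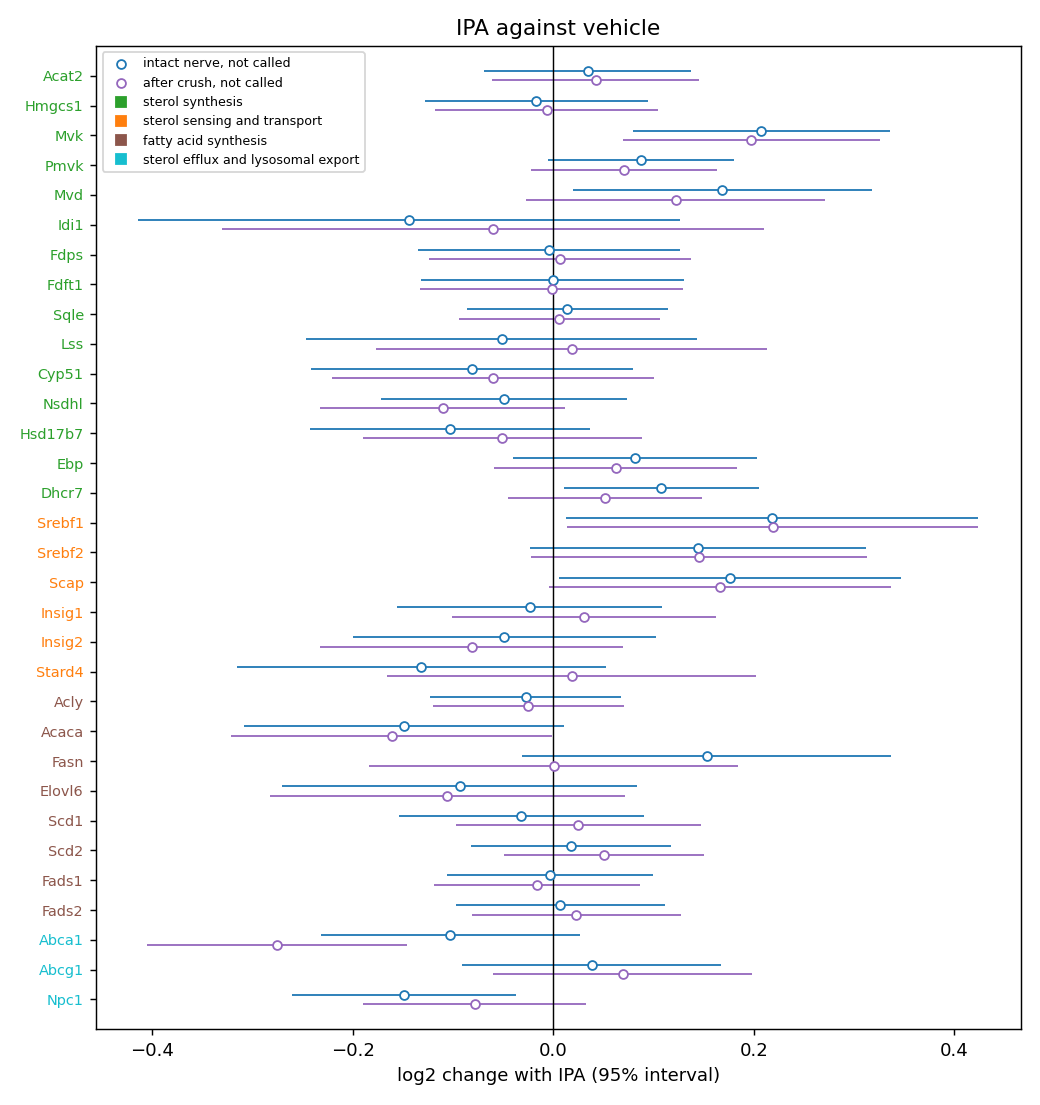
Log2 difference between IPA and vehicle with its 95% interval for each of the 32 genes, without injury (blue) and after nerve crush (purple), 3 libraries against 3; open points did not pass the adjusted test. No gene was called, and the differences run from -0.28 (Abca1 after injury) to 0.22 (Srebf1).

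Within a group, the 32 genes were about as steady as others of their level. The median coefficient of variation over the 3 libraries of a group was 4.86%, from 2.08% for Pmvk to 10.7% for Idi1, beside 4.68% over the 5833 tested genes with at least the lowest level of the 32. Of the 15 sterol enzymes 9 were highest in replicate 1 of vehicle, where 22.3% of all tested genes were highest, and 9 in replicate 1 of injured vehicle (42.7% of all genes). In IPA 8 were highest in replicate 1 (31.2%), and in injured IPA 10 in replicate 3 (49.2%). The summed value of the 15 enzymes was 2214, 2168 and 2083 in vehicle and 2208, 2163 and 2111 in IPA libraries. After injury it was 2516, 2274 and 2354 under vehicle and 2343, 2365 and 2461 under IPA, above every uninjured library in every case. Under vehicle the mean sum went from 2155 to 2381, and Hsd17b7 alone from 70.3 to 168. The sum of the 3 efflux and lysosomal genes separated further: uninjured libraries had 150.4 to 154 under vehicle and 142 to 148 under IPA, and injured libraries 273 to 296 and 242 to 251. Abca1 alone carried that rise, from a mean of 55.1 to 214 under vehicle. The other members fell, Abcg1 from 55.4 to 33.5 and Npc1 from 42.0 to 35.5.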

How the data were processed

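Per the labels' protocols, directional libraries of poly(A) RNA were sequenced on a HiSeq4000. The submitters' processing notes name R 3.5.0, limma 3.38.3, STAR 2.7.0, edgeR 3.24.3 and the build mm10. A read counter and an annotation were not given in the sources used. The file that the authors deposited is 1 table named as FPKM, whose values behaved as CPM: in each library 100.0% were whole multiples of 1 step within 1e-06, so reads could be recovered, and columns sum to 803444 to 818767.

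Genes with at least 0.5 in at least 3 libraries (15603) were taken as log2(value + 0.5) and fitted over all 12 libraries with limma-trend (limma 3.58.1, R 4.3.3; 8 residual degrees of freedom), with Benjamini-Hochberg adjustment over all genes of a contrast. A fold change on this scale understates that of low genes. The script was tested on simulated counts. Every replicate pair differed beyond sampling noise, with a chi-square of 4.80 to 28.3 for each degree of freedom.

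Injury was compared within each treatment and IPA within each injury state, with their interaction and the average over injury states. Values are given in full for genes called in an injury comparison, at most 5 per group of genes, and for the 4 genes with the smallest unadjusted p in the average. The 32 genes and all lists were chosen with earlier results of these data known. Coordinates are from GENCODE M21 on mm10. Alternatives were other pseudocounts, filters, scalings, thresholds and array weights, edgeR 4.0.16 and DESeq2 1.42.0 on recovered reads, removal of GC and length trends, a replicate block, fits on the 6 compared libraries alone, and the omission of each library. A few genes of these lists are not reported here and were left out of the list counts.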

Additional observations from a re-analysis of the deposited data

How the results depend on the processing

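No call of the 32 genes changed direction under any of the 27 alternatives. Leaving out each library in turn gave 9 to 11 genes higher and 5 to 8 lower after injury under vehicle, 9 to 11 and 4 to 7 under IPA, and 0 in the IPA comparisons and the interaction. Of all 15603 tested genes the same fits called 3080 to 4080 higher and 3219 to 4240 lower after injury under vehicle. Under IPA they called 2738 to 3648 higher and 2868 to 3981 lower, and in the IPA comparisons at most 3. Array weights made the largest difference: 10 genes were lower after injury under vehicle, 6 higher and 5 lower for IPA without injury, 7 and 3 for IPA after injury, 3 higher in the interaction, and 7 and 6 for IPA on average. That fit stopped before converging and gave injured IPA replicate 2 a weight of 42.2. The gene-by-gene form, chosen after seeing the data, gave weights of 0.185 to 4.86 and 10 lower after injury under vehicle, 5 higher and 4 lower for IPA without injury, 1 and 1 after injury, and 7 and 3 on average. After injury under vehicle the default weights called 5275 of all 15603 tested genes lower and the gene-by-gene form 4825, where the fit without weights called 3801. Over all tested genes the default weights called 2444 higher and 1716 lower for IPA without injury, 2137 and 1863 after injury, 952 and 1174 in the interaction and 3013 and 2246 on average, where the fit without weights called 0 in each. The gene-by-gene form called 1931 and 1342, 232 and 92, 0 and 2, and 1957 and 1178. On average over injury states DESeq2 called 1 higher and 1 lower of the 32. The cause was not tested. With the replicate number as a block, 10 genes were higher and 6 lower after injury under vehicle and 10 and 6 under IPA. Of all tested genes 3549 were then higher and 3661 lower under vehicle, and 3156 and 3359 under IPA. Nsdhl lost its call (adjusted p = 0.0749). The numbers did not pair the libraries: same-numbered libraries correlated at -0.252 to 0.286 (18 pairs) and others at -0.346 to 0.287. With 3 libraries against 3, the injury calls lost without a single library were those of Nsdhl, Insig1, Insig2, Scd1, Fads1, Sqle, Stard4 and Npc1, none of which exceeded the change of Stard4 under IPA in size.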
